A study of Mus musculus with 27 samples.

Results

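The E2F and DP transcription factors were followed across the culture of mouse fetal liver cells that lacked Rb1, p107 or both. The 10 genes E2f1 to E2f8, Tfdp1 and Tfdp2 were taken by name, among 18193 genes with a probe set of their own on the array. The choice applied no cut on measured values, but earlier results of these data were known when it was made. They were read by 21 probe sets, of which 19 passed a filter on mean signal and were tested. The third probe set of E2f1 (1447840_x_at, signal 6.2 to 117.5) and the second of E2f6 (1437914_at, signal 4.7 to 63.4) lay below the filter. Each of the 10 genes kept at least 1 tested probe set.

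E2F proteins bind DNA at the promoters of genes for entry into S phase and for DNA replication. E2f1, E2f2 and E2f3 are the activators, which the retinoblastoma protein Rb1 binds and holds inactive until it is phosphorylated. E2f4 and E2f5 mostly repress, in complexes with the pocket proteins p107 (gene Rbl1) and p130 (gene Rbl2), while E2f6 represses without pocket proteins, through Polycomb proteins. E2f7 and E2f8 are atypical: they carry a pair of DNA-binding domains, bind DNA without a DP partner and repress E2F targets late in the cycle. The DP proteins Tfdp1 and Tfdp2 pair with E2f1 to E2f6 to bind DNA. The fetal liver is where definitive red cells are made, and red cell precursors leave the cycle as they mature.

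The samples were RNA from mouse liver cells at embryonic day 14.5, on 27 arrays, with signals on the linear MAS5 scale. Cells were wild type, p107 KO, Rb1 KO or Rb1;p107 DKO (both genes knocked out), and were taken at 0 h or after 24 h or 48 h of culture in a serum-rich medium without other treatment. At 0 h, 24 h and 48 h there were 3, 2 and 2 wild-type arrays, 2, 2 and 1 p107 KO arrays, 5, 4 and 2 Rb1 KO arrays, and 2, 1 and 1 DKO arrays. Which stretch of each gene was altered, and whether the knockout covers the whole embryo, are not given in the sources used here. Replicate arrays may or may not be of different embryos, which the labels leave unsaid, so p-values measure the spread between these arrays, which may be technical.

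In the Rb1 KO arrays the Rb1 probe set 1417850_at still gave signal, 2109 ± 481 at 0 h against 6609 ± 482 in wild type (SD, n = 5 and 3), and by 48 h the log2 difference was -0.36 ± 0.24 (limma adjusted p = 0.474). In DKO the mean was 1519.5 at 0 h, and the single arrays gave 4600 at 24 h and 5993.6 at 48 h. The wild-type means at 24 h and 48 h were 9448.9 and 6164.4. Where that probe set lies relative to the altered stretch was not established. The Rbl1 probe set 1424156_at was 9.25-fold lower in p107 KO than in wild type and 0.56 ± 0.14 higher on the log2 scale in Rb1 KO (limma adjusted p = 0.00744). Red cell markers were bright in wild type at 0 h, with a mean Slc4a1 signal of 34473, and so was the hepatocyte gene Alb at 36281, while the Hba-a1 probe set gave 44.0. The first Rb1 KO, p107 KO and DKO arrays at 24 h and the fifth Rb1 KO array at 0 h stood apart from the others of their culture time, with a median correlation of 0.925 to 0.947. The second wild-type and second Rb1 KO arrays at 48 h had values in that range, 0.939 and 0.943, and were left out only singly. The Y-linked gene Eif2s3y gave a signal above 200 in 0 of 7 wild-type, 2 of 5 p107 KO, 3 of 11 Rb1 KO and 4 of 4 DKO arrays. Y-linked signal, called by this gene alone, thus moved with genotype. In bulk samples, fewer cells of a type and less RNA per cell cannot be told apart.

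Averaged over the 3 culture times, loss of Rb1 went with higher signal of E2f1, E2f6, E2f7, E2f8 and Tfdp1 and with lower signal of Tfdp2, read by each gene's brightest probe set. Of the 19 probe sets, 7 were higher and 2 lower in Rb1 KO at a limma adjusted p under 0.05, where 8.24% of all 27022 tested probe sets were called higher and 4.79% lower. The 8 members' probe sets that read E2f2, E2f3, E2f4 and E2f5 did not pass. The median log2 difference over the 19 was 0.14, against -0.02 over all tested probe sets. An alternative chosen after seeing the data, without the 4 arrays that stood apart, gave 7 higher and 3 lower. With Y-linked signal as a term in the fit, 7 were higher and 2 lower. With replicate number as a term, 6 were higher and 3 lower.

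More members passed after culture than before it. At 0 h no member passed, where 0.266% of all probe sets were called higher and 0.0444% lower, although 5 of the 19 had an unadjusted limma p under 0.05. At 24 h 4 were higher and 1 lower, with 3.01% of all probe sets called higher and 1.74% lower. At 48 h 6 were higher and 1 lower, with 5.18% called higher and 1.74% lower. Without the 4 arrays that stood apart the counts were 6 higher and 3 lower at 24 h and 7 higher and 2 lower at 48 h. Other alternatives gave fewer. With only the groups compared in the fit, 1 was higher and 0 lower at 24 h and 5 higher and 0 lower at 48 h. Without the second wild-type array at 24 h, 2 were higher and 1 lower at that time, and without the first, 4 and 0. Without the second wild-type or the second Rb1 KO array at 48 h, 4 were higher and 0 lower at that time. A test of whether the genotype difference itself changed between 0 h and 48 h passed upward for E2f6, E2f7 and E2f8, where 1.55% of all probe sets passed upward and 0.474% downward. The other 16 probe sets did not pass it, and without the second wild-type or the second Rb1 KO array at 48 h it passed for 1, E2f8. Signals of the 2 genotypes did not overlap for 4 probe sets higher and 1 lower in Rb1 KO at 0 h (3.21% and 2.48% of all probe sets), for 6 and 2 at 24 h (12.9% and 11.4%) and for 10 and 3 at 48 h (23.3% and 24.9%). The 5 arrays at 0 h against 2 at 48 h give the tests at each time unequal precision.

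**Figure D1:**
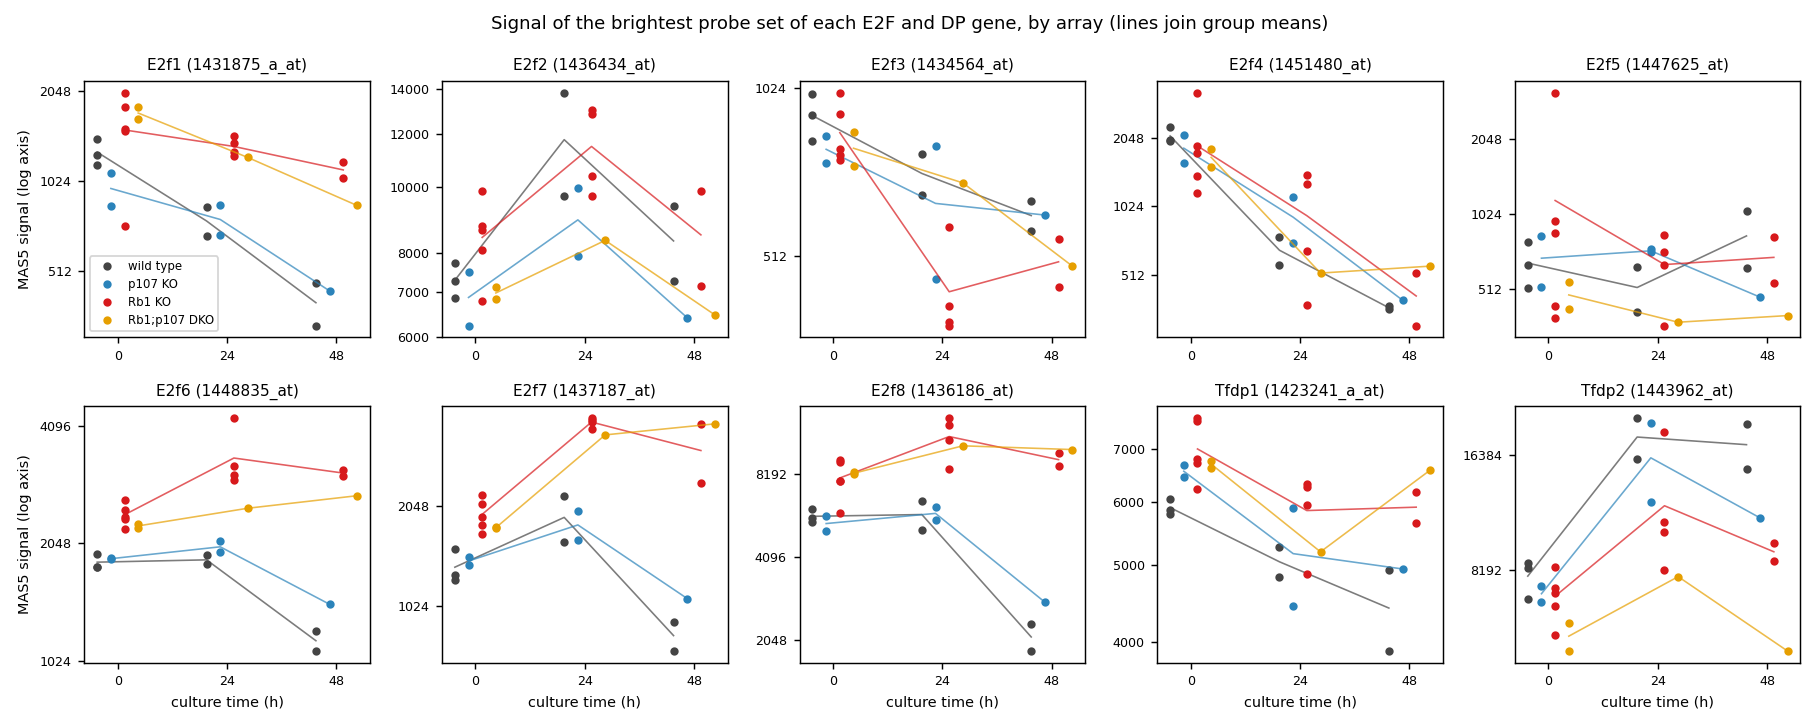
MAS5 signal on a log axis against culture time for the brightest probe set of each of the 10 genes, with 1 point per array, genotypes set side by side at each time, and lines joining group means. For E2f1, E2f6, E2f7, E2f8 and Tfdp1 the Rb1 KO and DKO points lie above the wild-type and p107 KO points at 48 h.

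**Figure D2:**
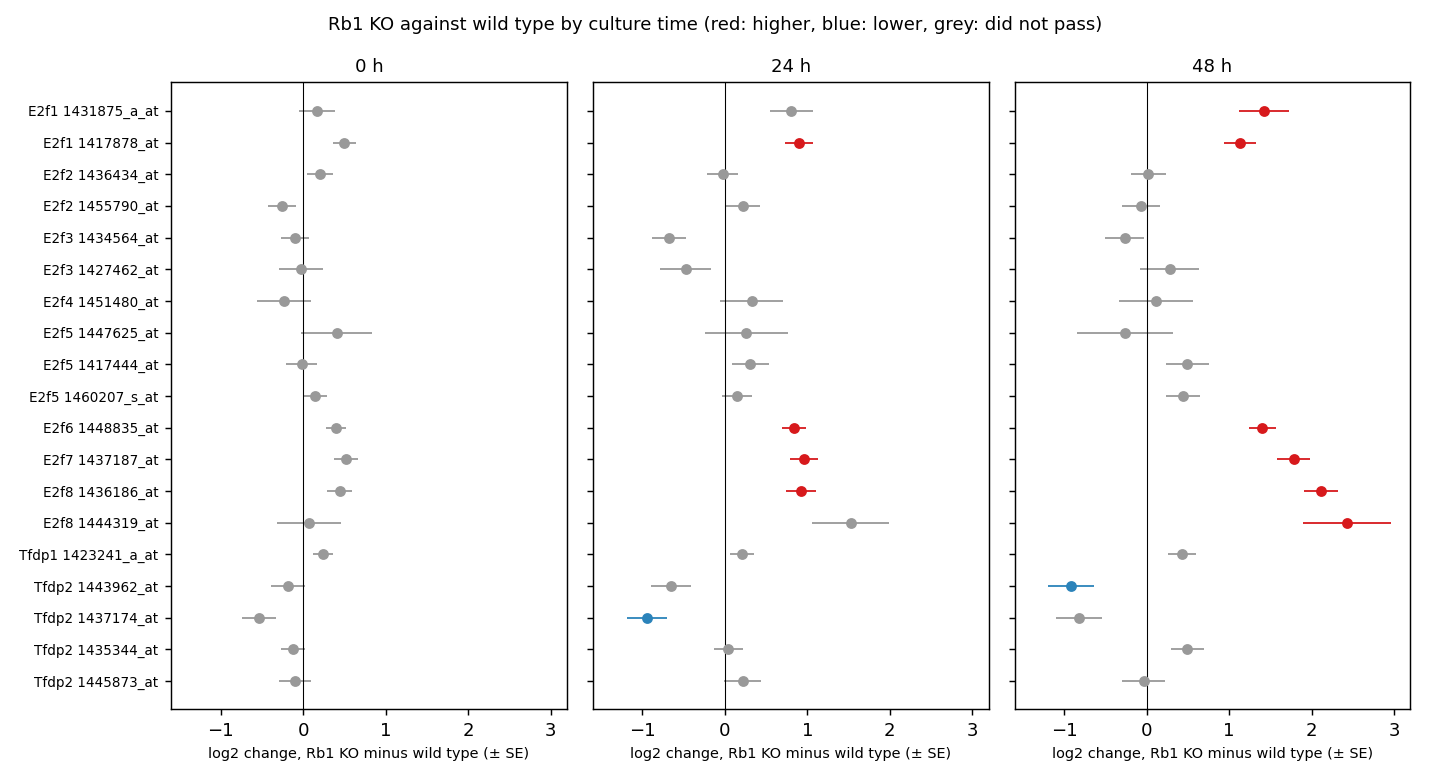
Log2 difference of Rb1 KO minus wild type with its standard error, for each of the 19 tested probe sets at 0, 24 and 48 h. Coloured points passed the limma test, and their number goes from 0 at 0 h to 5 at 24 h and 7 at 48 h.

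The atypical repressor E2f7 (chr10:110745439-110787384, GRCm38.p6) was read by the single probe set 1437187_at. Its wild-type signal was 1523, 1232 and 1274 at 0 h, 2197 and 1595 at 24 h, and 921 and 752 at 48 h. In Rb1 KO it was 1907, 2077, 1689, 1797 and 2211.5 at 0 h, 3724, 3493, 3771 and 3676 at 24 h, and 2398 and 3624 at 48 h. At each of the 3 times every Rb1 KO array was above every wild-type array. Averaged over the times E2f7 was 2.12-fold higher in Rb1 KO, a log2 difference of 1.09 ± 0.10 (SE, n = 11 and 7 arrays, limma adjusted p = 8.45e-08). The difference was 0.52 ± 0.15 at 0 h and did not pass (limma adjusted p = 0.251). It was 0.96 ± 0.17 at 24 h (limma adjusted p = 0.00157) and 1.79 ± 0.20 at 48 h (limma adjusted p = 3.26e-06). The widening from 0 h to 48 h was 1.27 ± 0.25 (limma adjusted p = 0.00568), and the adjusted p was 0.0617 without the second wild-type array at 48 h and 0.110 without the second Rb1 KO array at 48 h. Without the second wild-type array at 24 h the 24 h difference had an adjusted p of 0.0937.

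E2f8 (chr7:48866429-48882073), the other atypical repressor, had the largest mean difference among the members' brightest probe sets in this comparison. Probe set 1436186_at gave 6118, 5472 and 5640.2 in wild type at 0 h, 6535 and 5122 at 24 h, and 2339 and 1875 at 48 h. Rb1 KO gave 7680.1, 9149.8, 7723, 5912 and 9038.5 at 0 h, 13007, 8482, 10859 and 12238 at 24 h, and 8705 and 9693 at 48 h. The groups overlapped at 0 h, through the fourth Rb1 KO array, and did not overlap at 24 h or 48 h. The mean difference was 1.16 ± 0.11 on the log2 scale, or 2.24-fold (limma adjusted p = 6.99e-08). At 48 h E2f8 was 4.34-fold higher, 2.12 ± 0.21 on the log2 scale (limma adjusted p = 5.94e-07), against 0.44 ± 0.15 at 0 h (limma adjusted p = 0.525). The widening of 1.67 ± 0.26 (limma adjusted p = 0.000753) passed with each array left out in turn. At 24 h the difference of 0.92 ± 0.18 passed (limma adjusted p = 0.0033), but not without the second wild-type array at 24 h (adjusted p = 0.113) or with only the groups compared in the fit (0.0623). The dimmer E2f8 probe set 1444319_at, with signal from 17.9 to 957, was also higher, by 1.34 ± 0.27 over the times (limma adjusted p = 0.00125).

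The DNA around RefSeq starts of these genes is shown because E2F sites in their own promoters are part of the known circuit, in which activators raise E2f1, E2f7 and E2f8. Each window runs 5′ to 3′ on the gene's strand from 250 bases before to 50 bases after a RefSeq start (GRCm38.p6). Capitals mark matches on either strand to any of 4 forms of the E2F site, which may overlap. The form TTCCCGC was in 4.6% of 32851 windows of this length, TTGGCGC in 2.454%, TTCGCGC in 1.589%, TTGCCGC in 1.811%, and any of the 4 in 9.574%. Windows were found for 8 of the 10 members, and 6 of their 12 windows, in 5 genes, held a match. The Tfdp1 windows overlap and hold the same match, which is counted in each of them. A match is a description of the letters and not a measured binding site.
E2f7 chr10:110745189-110745488 (plus strand): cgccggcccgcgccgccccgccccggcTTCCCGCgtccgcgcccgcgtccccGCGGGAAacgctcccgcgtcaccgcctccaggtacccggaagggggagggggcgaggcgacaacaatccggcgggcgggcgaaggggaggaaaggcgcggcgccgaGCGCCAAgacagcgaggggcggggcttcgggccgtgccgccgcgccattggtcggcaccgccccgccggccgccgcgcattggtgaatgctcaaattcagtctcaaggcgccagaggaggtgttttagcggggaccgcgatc
E2f8 chr7:48881547-48881846 (minus strand): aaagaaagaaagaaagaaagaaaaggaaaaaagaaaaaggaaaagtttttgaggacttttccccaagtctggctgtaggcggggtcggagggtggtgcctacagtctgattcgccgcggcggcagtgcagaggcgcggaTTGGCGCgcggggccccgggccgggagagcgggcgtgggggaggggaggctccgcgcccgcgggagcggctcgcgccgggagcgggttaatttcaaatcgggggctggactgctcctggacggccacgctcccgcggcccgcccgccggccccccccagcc
E2f1 chr2:154569377-154569676 (minus strand): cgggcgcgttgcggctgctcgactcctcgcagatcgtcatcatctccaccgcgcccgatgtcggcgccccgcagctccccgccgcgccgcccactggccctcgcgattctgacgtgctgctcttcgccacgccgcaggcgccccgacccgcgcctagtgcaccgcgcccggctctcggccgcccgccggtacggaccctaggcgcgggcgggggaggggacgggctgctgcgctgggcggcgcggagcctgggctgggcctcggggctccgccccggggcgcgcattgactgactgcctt
E2f6 chr12:16810715-16811014 (plus strand): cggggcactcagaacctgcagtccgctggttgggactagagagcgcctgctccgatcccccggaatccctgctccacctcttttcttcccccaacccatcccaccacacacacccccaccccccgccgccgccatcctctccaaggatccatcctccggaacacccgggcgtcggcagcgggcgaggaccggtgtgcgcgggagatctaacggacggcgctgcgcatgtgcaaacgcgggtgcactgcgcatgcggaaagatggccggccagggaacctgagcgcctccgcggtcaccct
E2f2 chr4:136172024-136172323 (plus strand): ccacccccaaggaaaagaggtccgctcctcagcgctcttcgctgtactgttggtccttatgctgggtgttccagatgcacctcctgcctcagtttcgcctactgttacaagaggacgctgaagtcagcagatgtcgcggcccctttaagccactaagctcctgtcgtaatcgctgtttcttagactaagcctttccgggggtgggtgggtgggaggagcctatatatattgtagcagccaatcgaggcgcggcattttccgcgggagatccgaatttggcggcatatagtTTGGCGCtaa
The E2f7 window held 3 matches, at positions 28, 53 and 159 counted from its first base, and the E2f8 window held 1 at position 140. The E2f2 window shown held 1 at position 291, and a further E2f2 window, with its start site 8508 bases inside the gene, held 0. These letters were not in the E2f1 and E2f6 windows. The start sites used for E2f1, E2f6 and E2f8 lie 465, 56 and 476 bases inside the outermost annotated end of the gene. Other starts of these genes were not searched. The E2f1 and E2f8 windows lie wholly inside the gene, so they do not cover DNA upstream of its outermost start. E2f3 and Tfdp1 were the other members with a match. The Tfdp2 windows, which held 0, have start sites 62459 and 63002 bases inside the gene.

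E2f6 (chr12:16810909-16826752) was the canonical repressor that rose. Probe set 1448835_at gave 1927, 1784 and 1786 in wild type at 0 h, 1906 and 1809 at 24 h, and 1221 and 1086 at 48 h. The Rb1 KO signal was 2384, 2641, 2357, 2496 and 2233 at 0 h, 4283, 2964, 3054 and 3231 at 24 h, and 3042 and 3151 at 48 h. No Rb1 KO array overlapped wild type at any of the 3 times. The mean log2 difference was 0.88 ± 0.08, or 1.84-fold (limma adjusted p = 1.09e-07). By time it was 0.40 ± 0.12 at 0 h (limma adjusted p = 0.358), 0.84 ± 0.14 at 24 h (limma adjusted p = 0.000934) and 1.40 ± 0.16 at 48 h (limma adjusted p = 6.31e-06). Its widening was 1.01 ± 0.20 (limma adjusted p = 0.00797), with an adjusted p of 0.0654 without the second wild-type or the second Rb1 KO array at 48 h. With weights per array the 0 h difference also passed (limma adjusted p = 0.0223), and with only the groups compared in the fit the 24 h difference did not (adjusted p = 0.0586). Of the 5 measured partners of E2f6 in Polycomb-type complexes, 1 passed over the times, where 8.24% of all probe sets were called higher. Rnf2, a ubiquitin ligase subunit, was higher by 0.29 ± 0.09 (limma adjusted p = 0.0359).

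E2f4 (chr8:105297663-105305370), which mice need for normal fetal red cell formation, showed no detectable difference between Rb1 KO and wild type. Probe set 1451480_at gave 2277, 1995 and 1982 in wild type at 0 h, 748 and 562 at 24 h, and 361 and 371 at 48 h. Rb1 KO spread from 1174 to 3230.4 at 0 h and from 375 to 1410.3 at 24 h, and gave 305 and 519 at 48 h. The wild-type values lay inside the Rb1 KO range at each time. The mean difference was 0.07 ± 0.23, with a 95% interval of -0.40 to 0.54 (limma adjusted p = 0.887).

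E2f5 (chr3:14578602-14606309) was read by 3 probe sets, of which 1417444_at and 1460207_s_at had a correlation of 0.833 over the 12 group means, while 1447625_at had 0.146 and -0.13 with them. Their mean differences were 0.14 ± 0.29 for 1447625_at, 0.26 ± 0.13 for 1417444_at and 0.25 ± 0.10 for 1460207_s_at, and none of the 3 passed (smallest limma adjusted p = 0.131). At 48 h 1417444_at gave 458 and 514.5 in Rb1 KO against 342 and 329 in wild type. Probe set 1460207_s_at gave 428 and 449.5 against 337 and 293. Neither overlapped at that time and neither passed, while the groups overlapped for 1447625_at. The brightest, 1447625_at, gave 3149 on the fourth Rb1 KO array at 0 h, where its range over the 27 arrays began at 364.

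Among the activators, E2f1 (chr2:154559400-154569892) was higher in Rb1 KO by both tested probe sets. Probe set 1417878_at gave 726, 824 and 765 in wild type at 0 h, 395.5 and 508 at 24 h, and 212 and 243 at 48 h. In Rb1 KO it gave 1189, 1113, 961, 1240.2 and 1032 at 0 h, 891, 773, 897 and 902 at 24 h, and 622.5 and 459.9 at 48 h. All Rb1 KO values at each time were above all wild-type values. The mean difference was 0.84 ± 0.10, or 1.79-fold (limma adjusted p = 2.26e-06). It was 0.50 ± 0.14 at 0 h (limma adjusted p = 0.261), 0.90 ± 0.17 at 24 h (limma adjusted p = 0.0022) and 1.13 ± 0.19 at 48 h (limma adjusted p = 0.000499). Without the first wild-type array at 24 h the 24 h difference had an adjusted p of 0.0825, and with weights per array the 0 h difference passed (limma adjusted p = 0.0478). With only the groups compared in the fit the adjusted p was 0.0557 at 24 h and 0.0726 at 48 h.

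The brighter E2f1 probe set, 1431875_a_at, gave 1163, 1257 and 1422 in wild type at 0 h, 669 and 838 at 24 h, and 467 and 336 at 48 h. The Rb1 KO values were 1503, 1812, 1535, 2025 and 723 at 0 h, 1374, 1455.5, 1244 and 1279 at 24 h, and 1049 and 1185 at 48 h. The fifth Rb1 KO array at 0 h, which stood apart over the whole array, was below wild type, and the groups did not overlap at 24 h or 48 h. The mean difference was 0.80 ± 0.15, or 1.74-fold (limma adjusted p = 0.000805), and at 48 h it was 1.42 ± 0.30, or 2.68-fold (limma adjusted p = 0.00385). At 48 h the adjusted p was 0.0806 without the second wild-type array and 0.0616 without the second Rb1 KO array. The widening from 0 h to 48 h was 1.25 ± 0.37 and did not pass (limma adjusted p = 0.0962), and that of 1417878_at was 0.63 ± 0.24 (limma adjusted p = 0.238).

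E2f2 (chr4:136172274-136196057), an activator known for a role in late red cell precursors, was bright on every array. Neither of its probe sets passed between Rb1 KO and wild type over the times. Probe set 1436434_at gave 6853, 7726 and 7269 in wild type at 0 h, 13803 and 9717 at 24 h, and 7260.5 and 9394 at 48 h. Rb1 KO spanned 6795 to 9858 at 0 h and 9690 to 13032 at 24 h, and gave 7130.3 and 9873 at 48 h. By this probe set the groups overlapped at each time. The 95% interval of the mean difference was -0.16 to 0.29 (0.07 ± 0.11, limma adjusted p = 0.755), and for the second probe set, 1455790_at, it was -0.28 to 0.21. At 0 h 1455790_at gave 5268 to 5811 in Rb1 KO, below the 5937 to 7345 of wild type, and did not pass. Its groups overlapped at 24 h and 48 h. The 2 probe sets had a correlation of 0.547 over the 12 group means.

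E2f3 (chr13:29906575-29986064), the third activator, lay lower in Rb1 KO by 0.35 on the log2 scale, at the edge of the test. Its probe set 1434564_at gave 999.5, 821 and 916 in wild type at 0 h, 780.3 and 657.5 at 24 h, and 568 and 640.4 at 48 h. In Rb1 KO it gave 917, 760, 776.5, 796 and 1003 at 0 h, 384, 416, 389 and 577 at 24 h, and 548 and 451 at 48 h. The groups overlapped at 0 h and did not overlap at 24 h or 48 h. The mean difference was -0.35 ± 0.12 (limma adjusted p = 0.0558), and it passed without the 4 arrays that stood apart (limma adjusted p = 0.0197) and without the fourth Rb1 KO array at 24 h (limma adjusted p = 0.0264). It also passed with the lowest 60% of probe sets left out (limma adjusted p = 0.0401), with 1 probe set per gene (0.0399) and with array weights (0.0285). At 24 h the difference was -0.68, which passed with the lowest 60% left out (limma adjusted p = 0.0421) and with 1 probe set per gene (0.0408) but not in the main fit. The dim second probe set, 1427462_at, differed by -0.07 ± 0.18.

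The DP partner Tfdp1 (chr8:13338725-13378448) was 1.22-fold higher in Rb1 KO over the times, the smallest of the differences that passed. Its probe set 1423241_a_at gave 5801, 6042 and 5859.5 in wild type at 0 h, 4826 and 5264.5 at 24 h, and 4929 and 3899 at 48 h. Rb1 KO gave 7571, 6235, 6787.5, 7646 and 6717 at 0 h, 4874, 6323.5, 5948 and 6257 at 24 h, and 5638 and 6178 at 48 h. The groups overlapped at 24 h and did not at 0 h or 48 h. The difference was 0.29 ± 0.09 (limma adjusted p = 0.0263), and it lost its call without the second Rb1 KO array at 48 h (adjusted p = 0.0929), the second wild-type array at 48 h (0.116) or the first wild-type array at 24 h (0.0816).

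Tfdp2 (chr9:96196246-96323646), the other DP partner, was read by 4 probe sets that fell into 2 pairs. Over the 12 group means 1443962_at and 1437174_at had a correlation of 0.930, and 1435344_at and 1445873_at one of 0.871, while correlations across the pairs ran from -0.354 to -0.125. These are descriptions over means that share culture times and genotypes. Where each probe set lies in the transcripts of Tfdp2 was not established.

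The first pair was lower in Rb1 KO. Probe set 1443962_at gave 8270.2, 6867 and 8528 in wild type at 0 h, 20408.5 and 15990 at 24 h, and 15030.2 and 19735 at 48 h. In Rb1 KO it gave 7142, 7341, 5543, 6610 and 8323 at 0 h, 18763, 8199.6, 10306.5 and 10897 at 24 h, and 9613 and 8651 at 48 h. The groups did not overlap at 48 h and overlapped at 0 h and 24 h. The mean difference was -0.58 ± 0.14 (limma adjusted p = 0.00669). For 1437174_at it was -0.77 ± 0.14 (limma adjusted p = 0.000527).

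By time, 1437174_at passed at 24 h (-0.95 ± 0.24, limma adjusted p = 0.0229) and 1443962_at at 48 h (-0.91 ± 0.28, limma adjusted p = 0.0494). The 24 h call was lost without the first wild-type array (adjusted p = 0.352) or the second Rb1 KO array at 24 h (0.0575), and with only the groups compared in the fit (0.140). The 48 h call was lost without any 1 of the 4 arrays at 48 h, with adjusted p from 0.0658 to 0.338, and also with Y-linked signal as a term (0.105), with no filter (0.0759), with only the groups compared (0.0534) and with a pseudocount of 1 (0.0517). Over the times the second pair did not differ detectably, at 0.14 ± 0.10 for 1435344_at (limma adjusted p = 0.418) and 0.03 ± 0.13 for 1445873_at (limma adjusted p = 0.925). At 48 h 1435344_at gave 2855 and 2820 in Rb1 KO against 2060 and 1958 in wild type. It was thus higher there without overlap, opposite to the first pair, and did not pass. Its groups overlapped at 0 h and 24 h.

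**Figure D3:**
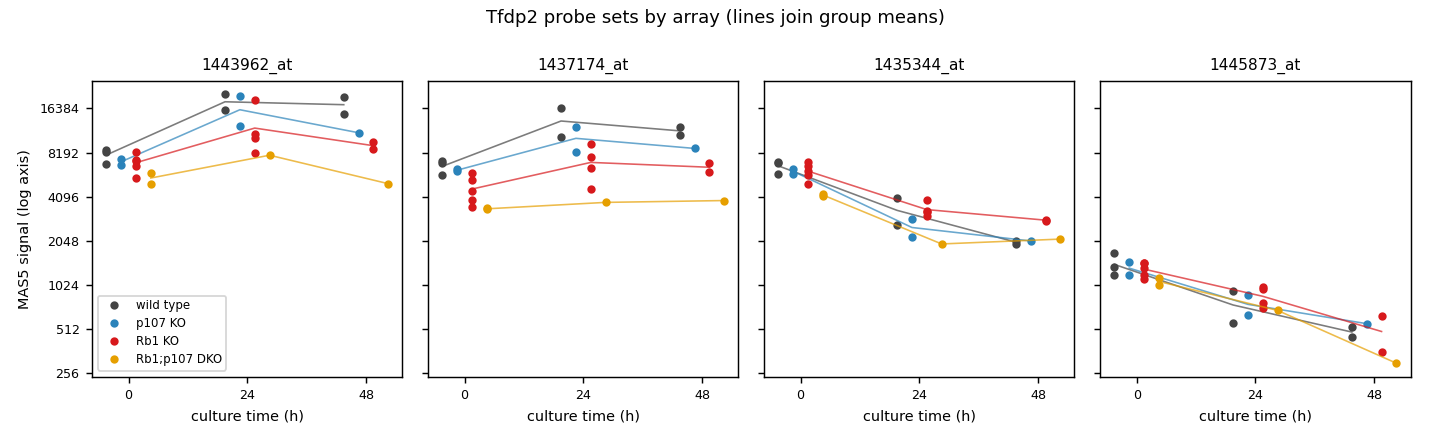
MAS5 signal on a log axis against culture time for the 4 probe sets of Tfdp2, with 1 point per array and lines joining group means. In wild type 1443962_at and 1437174_at lie higher at 24 h than at 0 h, while 1435344_at and 1445873_at lie lower.

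From 0 h to 24 h in wild type and p107 KO, probe sets of Tfdp2 went in opposite directions. The number of members called over that step was near the share over all probe sets. In wild type from 0 h to 24 h, 3 probe sets rose and 5 fell, where 10.4% of all probe sets were called higher and 17.6% lower, and the median over all of them shifted by -0.11 (0.02 after quantile scaling). Without the first wild-type array at 24 h 1 rose and 3 fell, and without the second 4 rose and 2 fell. Tfdp2 rose by 1.20 ± 0.26 by 1443962_at (limma adjusted p = 0.00102) and fell by 1.03 ± 0.18 by 1435344_at (limma adjusted p = 0.000151). The ratio of the signals of these 2 probe sets was 0.930 to 1.44 on the 12 arrays at 0 h and 2.39 to 10.1 on the 15 cultured arrays, which shows unequal change and not a level of either. In p107 KO over the same step 1 probe set rose and 2 fell, all of Tfdp2, with 8.29% of all probe sets called higher and 12.7% lower. There 1443962_at rose by 1.14 ± 0.28 (limma adjusted p = 0.00489, and 0.119 without the first p107 KO array at 24 h) and 1435344_at fell by 1.27 ± 0.20 (limma adjusted p = 5.13e-05).

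E2f4 fell 3.10-fold in wild type from 0 h to 24 h, by 1.63 ± 0.41 on the log2 scale (limma adjusted p = 0.00404), and the adjusted p was 0.0624 without the second wild-type array at 24 h. E2f1 fell by 0.74 ± 0.18 by 1417878_at (limma adjusted p = 0.00288), a call lost without the first wild-type array at 24 h (adjusted p = 0.0747). E2f2 rose by 0.67 ± 0.20 by 1436434_at (limma adjusted p = 0.0132), a call lost without the first wild-type array at 24 h (adjusted p = 0.250) and with quantile scaling (0.170). E2f6 and E2f8 did not move detectably, at 0.02 and 0.01.

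From 24 h to 48 h in wild type 5 probe sets fell and 0 rose, with 7.01% of all probe sets called lower and 8.32% higher. E2f8 fell by 1.45 ± 0.21, or 2.74-fold (limma adjusted p = 8.48e-05), and E2f7 by 1.14 ± 0.20 (limma adjusted p = 0.00053). E2f6 fell by 0.67 ± 0.16 (limma adjusted p = 0.00709), a call lost without the first wild-type array at 24 h (adjusted p = 0.0525) or the second at 48 h (0.0708). E2f1 fell by 0.89 ± 0.19 by 1417878_at (limma adjusted p = 0.0032), a call lost without the second wild-type array at 24 h (adjusted p = 0.0679) and with only the groups compared in the fit (0.0578).

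In Rb1 KO 7 probe sets rose and 5 fell from 0 h to 24 h, where 16.1% of all probe sets were called higher and 24.7% lower. E2f7 rose by 0.92 ± 0.13 (limma adjusted p = 7.71e-06), E2f8 by 0.49 ± 0.14 (limma adjusted p = 0.00694) and E2f6 by 0.46 ± 0.11 (limma adjusted p = 0.00174), and the E2f8 call was lost with quantile scaling (adjusted p = 0.0891). E2f3 fell by 0.91 ± 0.16 (limma adjusted p = 6.96e-05) and E2f4 by 1.08 ± 0.30 (limma adjusted p = 0.00589). From 24 h to 48 h 0 rose and 2 fell, with 7.86% of all probe sets called higher and 4.15% lower. The 2 were E2f1 1417878_at (-0.66 ± 0.17, limma adjusted p = 0.0113) and Tfdp2 1445873_at (-0.80 ± 0.23, limma adjusted p = 0.0223). With only the groups compared in the fit 0 of the 19 were called by limma (adjusted p = 0.104 and 0.110). The E2f1 call was lost without the second Rb1 KO array at 48 h (adjusted p = 0.201), and that of Tfdp2 without the first (0.521), without the third at 24 h (0.0582) and with the replicate block (0.0590). Over that step E2f6, E2f7 and E2f8 changed by -0.11, -0.31 and -0.26 without passing.

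Loss of p107 alone was not seen to move the family. No member passed against wild type over the times, where limma called 0% of all probe sets higher and 0.0222% lower, and 3 of the 19 had an unadjusted p under 0.05. The differences ran from -0.66 for E2f8 1444319_at to 0.48 for E2f3 1427462_at, both dim. E2f7 differed by 0.12 ± 0.12, E2f8 by 0.12 ± 0.13, and E2f6 by 0.15 ± 0.10. With 5 p107 KO arrays these standard errors leave room for differences of a size seen for Tfdp1 in Rb1 KO.

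The DKO cells were compared with each single knockout. The 2 comparisons share the DKO arrays, and the first shares the Rb1 KO arrays with the comparison above. E2f7 gave 1774 and 1757 in DKO at 0 h, 3355 at 24 h and 3620.4 at 48 h, and in p107 KO 1362 and 1441 at 0 h, 1983 and 1616 at 24 h, and 1081 at 48 h. E2f8 1436186_at gave 8276 and 8146 in DKO at 0 h, 10319.8 at 24 h and 10004 at 48 h, and in p107 KO 5075 and 5741 at 0 h, 6197 and 5573 at 24 h, and 2813 at 48 h. At each time the DKO values of these 2 genes were above the p107 KO values.

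Against p107 KO, 6 probe sets were higher and 2 lower in DKO, where 2.78% of all probe sets were called higher and 1.83% lower. E2f8 1436186_at was higher by 1.08 ± 0.15 (limma adjusted p = 6.20e-05), E2f7 by 0.98 ± 0.14 (limma adjusted p = 0.000105), E2f6 by 0.50 ± 0.12 (limma adjusted p = 0.0107) and E2f1 by 0.80 ± 0.21 for 1431875_a_at (limma adjusted p = 0.0287). Tfdp2 was lower by 1.15 on the log2 scale for 1437174_at (-1.15 ± 0.20, limma adjusted p = 0.000687). There is 1 array of each genotype at 48 h, and without either of them the comparison rests on 0 h and 24 h, with 1 probe set higher and 1 lower, E2f8 1436186_at and Tfdp2 1437174_at. The E2f8 difference was then 0.71. E2f6 then differed by 0.30 (adjusted p = 0.346), E2f7 by 0.61 (adjusted p = 0.0553 or 0.0561) and E2f8 1444319_at by 0.09 (adjusted p = 0.970). The calls of E2f1 1431875_a_at (adjusted p = 0.145), E2f1 1417878_at (0.0667 or 0.0671) and Tfdp2 1443962_at (0.159) were lost there too, and both E2f1 calls were lost in several other single-array omissions. Of 5 p107 KO arrays 2 gave Y-linked signal, as did all 4 DKO arrays, and with Y-linked signal as a term in the fit 4 probe sets were higher and 1 lower. The calls lost there were E2f1 1431875_a_at (adjusted p = 0.131), E2f8 1444319_at (0.0733) and Tfdp2 1443962_at (0.0905).

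Against Rb1 KO, 1 probe set was lower in DKO and 0 were higher, where 0.403% of all probe sets were called lower and 0.303% higher. It was Tfdp2 1435344_at, at -0.57 ± 0.12 (limma adjusted p = 0.0367), and its adjusted p was 0.803 without the DKO array at 24 h, 0.325 without the 4 arrays that stood apart and 0.317 with Y-linked signal as a term. The call was also lost without either DKO array at 0 h (adjusted p = 0.103 and 0.0972), without any of 3 Rb1 KO arrays (0.0542 to 0.0833) and with only the groups compared (0.0795). That probe set gave 4139 and 4286 in DKO at 0 h, against 5022 to 7111 in Rb1 KO, and 1953 at 24 h, against 3022 to 3903. At 48 h it gave 2108 in DKO and 2819.7 and 2855 in Rb1 KO, so the DKO values were lower at each time. For E2f7 the 95% interval of the difference was -0.24 to 0.27, and for E2f8 1436186_at it was -0.23 to 0.30. Neither interval reaches the size of the same gene's difference between Rb1 KO and wild type.

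**Figure D4:**
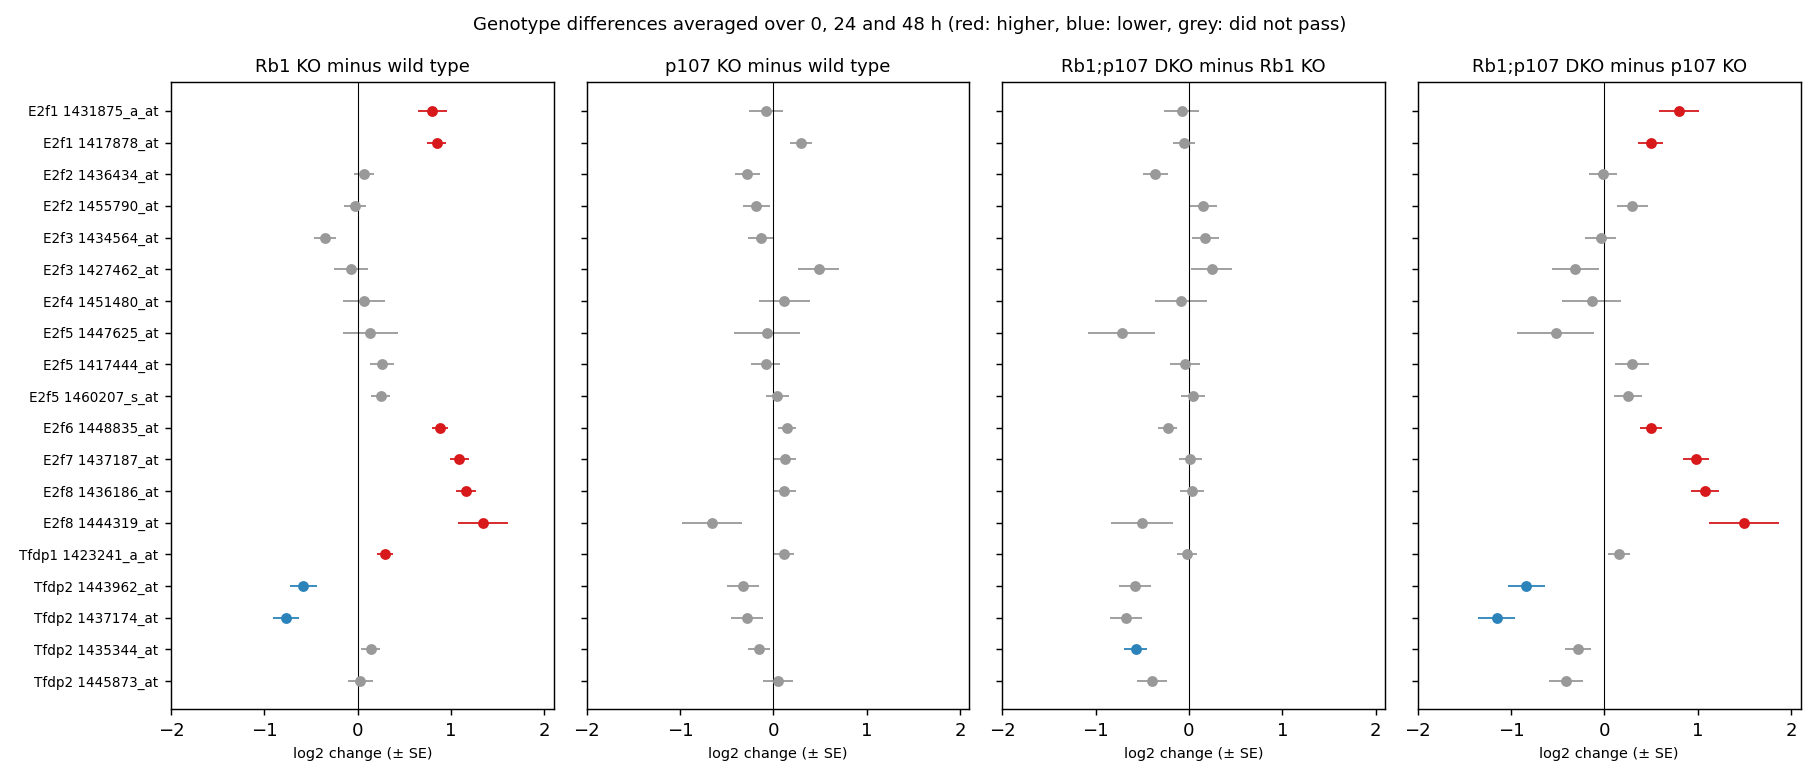
Log2 differences with standard errors of the 19 probe sets for 4 genotype comparisons, averaged over 0, 24 and 48 h. Coloured points passed the limma test: 9 for Rb1 KO minus wild type, 0 for p107 KO minus wild type, 1 for DKO minus Rb1 KO and 8 for DKO minus p107 KO.

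The genes that E2F proteins control were described from a list of known targets of G1/S and replication, chosen with earlier results of these data known. Over the times, 33 of the 41 measured targets were higher in Rb1 KO and 0 lower, with a median log2 difference of 0.56. Of all tested probe sets 8.24% were called higher and 4.79% lower. Slbp, which binds histone mRNA, was higher by 1.10 ± 0.08 (limma adjusted p = 1.65e-09), and the histone chaperone Asf1b by 1.12 ± 0.10. Clspn, of the replication checkpoint, was higher by 1.07 ± 0.09 and the primase subunit Prim1 by 0.88 ± 0.08.

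More of the targets passed after culture than before it, with 1 of 41 higher at 0 h, 11 at 24 h and 33 at 48 h. Calls over all probe sets also rose, with 0.266%, 3.01% and 5.18% called higher at these times. The 1 at 0 h was Ccne2, a cyclin of S-phase entry, at 1.31 ± 0.22 (limma adjusted p = 0.00299). A widening between 0 h and 48 h passed for 14 of 41, with 1.55% of all probe sets passing upward. From 24 h to 48 h 35 of 41 fell in wild type, with a median of -1.11, and 14 fell in Rb1 KO, with a median of -0.44. Of all probe sets 7.01% were called lower in wild type and 4.15% in Rb1 KO. In p107 KO against wild type 0 passed by limma, in DKO against Rb1 KO 0, and in DKO against p107 KO 22 were higher. The shares of all probe sets called higher there were 0%, 0.303% and 2.78%.

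Of the MuvB core and its partners, which join E2f4 or B-Myb at cell cycle genes, 5 of 7 were higher in Rb1 KO over the times. With 0 lower, their median was 0.62. In this comparison 8.24% of all tested probe sets were called higher and 4.79% lower. Mybl2, the gene of B-Myb, was higher by 0.82 ± 0.15, and the MuvB subunits Lin54 and Lin9 by 0.67 and 0.64. Mybl2 is also in the list of E2F targets and is counted in both. Of 13 measured G1 cyclins, kinases and inhibitors 12 were tested, and 4 were higher and 3 lower. Cdkn2c, an inhibitor of Cdk4 and Cdk6, was higher by 1.20 ± 0.10 (limma adjusted p = 1.61e-08), while Cdkn2b, of the same family, was lower (-0.82 ± 0.22, limma adjusted p = 0.0136). Of 5 proliferation markers 3 were higher, among them Mki67 by 0.70 ± 0.12.

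Markers of other cells moved with genotype and culture. Over the times 5 of 6 megakaryocyte markers were lower in Rb1 KO, with a median of -0.54, where 4.79% of all probe sets were called lower. At 0 h their mean log2 level was 10.78 to 11.24 in wild type and 10.20 to 10.68 in Rb1 KO. At 48 h 1 of 6 hepatocyte markers was lower, with a median of -1.29, where 1.74% of all probe sets were called lower. Their levels were 8.73 to 10.70 in wild type and 7.63 to 9.36 in Rb1 KO. In wild type all 6 hepatocyte markers fell from 0 h to 24 h, with a median of -6.65, where 17.6% of all probe sets were called lower. Of 7 erythroid markers 1 was lower in Rb1 KO, Epor, the erythropoietin receptor, at -0.52 ± 0.14 (limma adjusted p = 0.0144). None of the macrophage, endothelial and neutrophil markers passed over the times by limma. The part of these markers in the E2F results was not tested.

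The profiles of the members over the 12 group means were compared with those of 12562 other genes. Each gene was read by its brightest probe set alone, which for E2f5 and Tfdp2 did not move with all of the gene's other probe sets. E2f7 was most like Asf1b (r = 0.989), Ube2t (0.983) and Mis12 (0.983), and E2f8 most like Slbp (0.992), Kif18b (0.989) and Brca1 (0.982). E2f6 was most like Rfwd3 (0.985), Nsmce4a (0.974) and Slbp (0.971), and E2f1 most like Ssbp3 (0.972). E2f4 was most like Prpf8 (0.985), Tfdp1 most like Cpsf7 (0.954) and Tfdp2 most like Pyurf (0.977). E2f3 was most like Rcor1 (0.961), E2f2 most like Atp5d (0.929) and E2f5 most like Slc15a2 (0.875).

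Among the members, E2f6 and E2f8 had a correlation of 0.957, E2f6 and E2f7 of 0.934, and E2f7 and E2f8 of 0.922. E2f1 had a correlation of 0.830 with E2f8 and 0.567 with E2f7. Tfdp1 and Tfdp2 had one of -0.843, with Tfdp2 read by 1443962_at alone. The Tfdp2 probe set 1435344_at, whose correlation with 1443962_at was -0.354, was not compared with Tfdp1, so the sign holds for 1443962_at only. These correlations describe 12 means that share culture time, genotype and array scaling.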

How the data were processed

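Per the labels' protocols, total RNA was biotin-labelled for Affymetrix arrays. The deposited intensity values are MAS5 signals from GCOS 1.4, per the submitters' processing notes. Array medians ran from 81 to 119.3, and precision is limited by how many arrays each group has. Values were taken as log2(signal + 32). The 40% of the 45037 probe sets with the lowest mean were left out, which left 27022 (mean signal at least 62.1). limma 3.58.1 (R 4.3.3) fitted 1 mean per group over all 27 arrays with a variance trend, and p-values were Benjamini-Hochberg adjusted over all 27022, with 0.05 as threshold. Log2 changes understate those of dim probe sets. A gene is represented by its probe set of highest mean, named where it has 1 symbol. Promoters come from RefSeq. Tables and figures were made with Python 3.11.15 and matplotlib 3.10.9. The fit was tested on simulated data. Named genes are all members, the pocket genes, up to 4 genes per list with the smallest adjusted p, and for each member the 3 genes of most similar profile. Members, lists and tests were chosen with earlier results of these data known. Replicate numbers were not used to pair the arrays in the main fit. Alternatives tried were other pseudocounts, filters, quantile scaling, array weights, only the groups compared, Y-linked signal and replicate number as terms, 1 probe set per gene, and each array left out.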

Additional observations from a re-analysis of the deposited data

Results flagged for a closer look

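The difference between Rb1 KO and wild type changed from 0 h to 48 h, by a test of that change itself, for E2f6 (1.01 on the log2 scale), E2f7 (1.27) and E2f8 (1.67). Single arrays that lay far from the others of their group were found for 3 probe sets. The E2f1 probe set 1417878_at gave 773.4 on the second Rb1 KO array at 24 h, against 890.8 to 902.4 on the others. On the second Rb1 KO array at 0 h the untested E2f1 probe set 1447840_x_at gave 15.3, against 65.1 to 86.5, and the E2f3 probe set 1427462_at gave 122.6, against 166.3 to 178.6. Of 42 pairs of group and probe set examined, chance would mark about 1 in 20.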

How the results depend on the processing

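Of 4728 values recomputed under an alternative, 4375 kept their direction and their side of the threshold, 65 newly passed, 127 no longer passed and 161 counts or untested values shifted, and no direction turned. E2f6, E2f7 and E2f8 (1436186_at) at 48 h and over the times, and both E2f1 probe sets over the times, kept their calls under every alternative run. The counts below are of all tested probe sets called. With 1 probe set per gene, fewer features were tested, and the counts were 2078 for Rb1 KO against wild type over the times (3520 otherwise), 848 at 24 h (1282), 1137 at 48 h (1869), 2 for p107 KO against wild type (6), 109 for DKO against Rb1 KO (191), 778 for DKO against p107 KO (1245), and, from 0 h to 24 h, 4156 in wild type (7551), 5696 in Rb1 KO (11012) and 3198 in p107 KO (5662). With array weights they were 211 for Rb1 KO at 0 h (84), 12 for p107 KO, 943 for DKO against Rb1 KO and 2047 against p107 KO. With only the groups compared in the fit they were 37 at 0 h, 378 at 24 h, 871 at 48 h, 14 for p107 KO, 15 for DKO against Rb1 KO and 1282 for Rb1 KO from 24 h to 48 h (3245). With Y-linked signal as a term, DKO gave 6 against Rb1 KO and 784 against p107 KO. For DKO against Rb1 KO a pseudocount of 1 gave 303 and no filter gave 74. Without the 4 arrays that stood apart, chosen after seeing the data, the counts were 2152 at 24 h, 2921 at 48 h, 19 for p107 KO, 11 for DKO against Rb1 KO and 1028 for the change from 0 h to 48 h (547). The cause of these shifts was not tested.

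Leaving out each array in turn gave 2257 to 4002 for Rb1 KO over the times, 40 to 80 at 0 h, 417 to 1403 at 24 h and 730 to 1508 at 48 h, 3 to 21 for p107 KO, 3 to 457 for DKO against Rb1 KO, 344 to 1251 against p107 KO and 151 to 656 for the change to 48 h. From 0 h to 24 h it gave 4797 to 6609 in wild type, 10105 to 11034 in Rb1 KO and 3230 to 5258 in p107 KO, and from 24 h to 48 h 1787 to 2738 in wild type and 769 to 3636 in Rb1 KO. Same-numbered arrays deviated together in 15 of 76 pairs (correlation over 0.1, range -0.174 to 0.379). The median correlation was 0.009 for same-numbered and -0.003 for different-numbered arrays. Of 24 arrays 13 correlated best with their own number, so whether the numbers pair some arrays was not settled. With the replicate block the counts were 3108 for Rb1 KO over the times, 54 at 0 h, 16 for p107 KO and 336 for DKO against Rb1 KO. Signal near background limits the dim probe sets E2f8 1444319_at and E2f3 1427462_at.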
